A study of Mus musculus with 17 samples.

Results

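The lungs of mice that had received 75 Gy were compared between 2 and 6 weeks after irradiation, the times at which the study examined inflammation and fibrosis. All libraries labelled 75 Gy were taken, which are 3 libraries of 2 weeks (3132, 3133 and 3134) and 3 of 6 weeks (3141, 3142 and 3143), or 6 of the 17 libraries in the series. The mice were wild-type C57BL/6 males whose left lung received a single focal dose from an image-guided small-animal irradiator. They arrived at an age of 6 weeks and were acclimatised for 1 week, so that the lungs were collected at about 9 and 13 weeks of age. Non-irradiated lungs of the same strain, sex and genotype were available at both times (3 libraries each), as were lungs given 65 Gy (3 libraries at 2 weeks and 2 at 6 weeks). The libraries were made from poly(A) RNA of lung tissue, which the study's methods describe as the lesion in irradiated lungs, so that the piece sampled may differ between groups. The labels do not say that each library came from a separate animal, and the p-values measure the spread between these libraries.

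A single very high dose to a small volume of lung first kills dividing and endothelial cells and draws in monocytes and macrophages, which respond to interferons and release chemokines. Later, lymphocytes and plasma cells gather, macrophages fill with lipid, and fibroblasts lay down collagen around the injured field. Immunoglobulin transcripts come from B cells and above all from plasma cells, while transcripts of mitotic proteins mark cells that are dividing at the time of collection. In such bulk samples, fewer cells of a type and less RNA per cell cannot be told apart.

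The 6 libraries held 54704261 to 66797879 counts on genes. They carried the lung's own markers, as Sftpc, the surfactant protein C gene of alveolar type 2 cells, lay between 8368 and 18730 CPM, counts scaled to the size of each library, in them. The libraries of 2 weeks differed more among themselves (biological coefficient of variation 0.265) than those of 6 weeks (0.171). Library 3134 stood apart at 2 weeks: the summed CPM of the interferon-gamma-inducible list reached 13150 there, against a lowest value of 6454 in that group. Calls that were lost without it are stated for many of the named genes and lists, but not for all of them. Mitochondrial genes took 3.73% to 6.40% of the counts at 2 weeks and 5.83% to 6.37% at 6 weeks. The part of this difference in the results was not tested.

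Between 2 and 6 weeks, 512 genes were higher and 184 were lower at 6 weeks, which are 2.32% and 0.834% of the 22052 genes tested. Calls in either direction made up 3.16%. They required an adjusted p of 0.05 or less (edgeR, quasi-likelihood, Benjamini-Hochberg) together with a change of at least 2-fold, an absolute log2 fold change of 1. Of the genes called higher, 494 had all 3 libraries of 6 weeks above all 3 of 2 weeks, and of the genes called lower, 177 had them all below. Over all genes tested, 14.2% were separated upwards and 13.6% downwards in this way. The genes that rose were led by antibody genes: 126 of the 512 were segments or constant regions of immunoglobulins or T cell receptors, and 386 were other genes. The counts depended on single libraries. They fell to 286 genes without library 3143, to 406 without 3142 and to 499 without 3134 (357 higher and 142 lower), and were 777 without 3133.

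**Figure D1:**
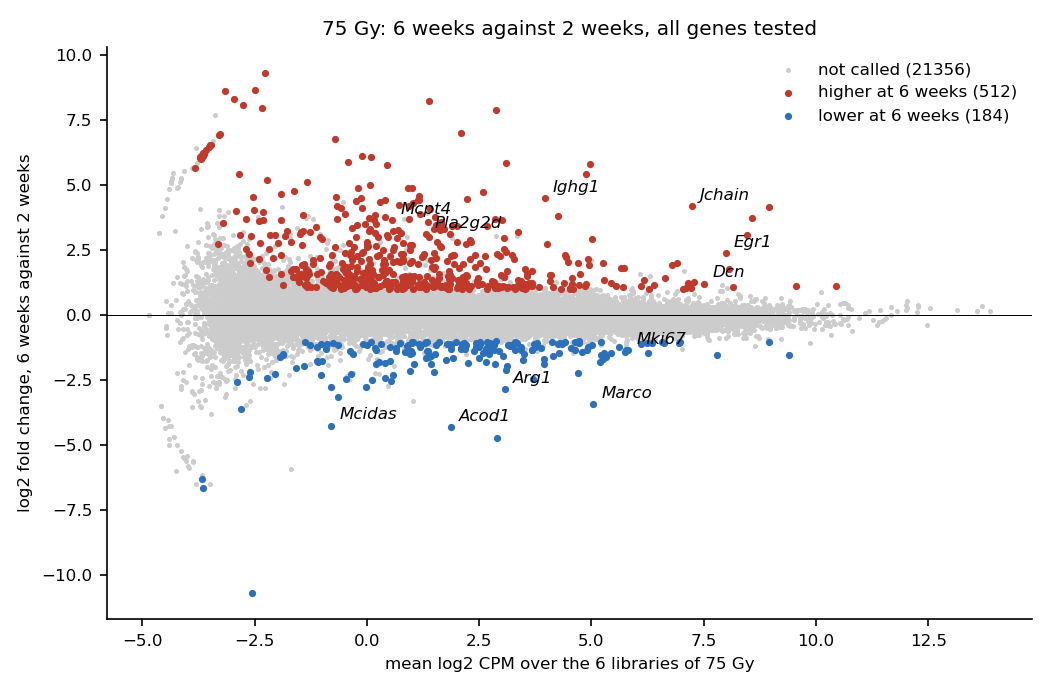
Each point is 1 of the 22052 genes tested, with its mean level over the 6 libraries of 75 Gy (log2 CPM) on the horizontal axis and its log2 fold change, 6 weeks against 2 weeks, on the vertical axis. The 512 genes called higher (red) spread further from 0 than the 184 called lower (blue), and Marco, Acod1, Jchain and Ighg1 lie near the edges of the cloud.

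Acod1, Marco and Arg1 had the most negative log2 fold changes among called genes with a standard symbol, a mean log2 CPM of at least 1 and no overlap between the times. Marco, a scavenger receptor of macrophages, had 132, 97.2 and 98.0 CPM at 2 weeks and 12.9, 9.59 and 7.91 CPM at 6 weeks. The groups were far apart, and the log2 fold change of -3.42 ± 0.30 (SE) had an adjusted p of 6.6e-05. In non-irradiated lungs Marco averaged 17.7 CPM at 2 weeks and 8.41 CPM at 6 weeks, so that the level at 6 weeks after 75 Gy was close to that of controls of the same time. Acod1, which makes itaconate in activated macrophages, had 4.20, 4.73 and 63.5 CPM at 2 weeks and 1.11, 1.59 and 0.950 CPM at 6 weeks. Library 3134 was far above the others, and the log2 fold change of -4.30 ± 0.86 (adjusted p = 0.0087) was -1.87 without it, still past the threshold. Arg1, the arginase of alternatively activated macrophages, showed the same order, with 9.14, 16.8 and 49.7 CPM at 2 weeks and 3.94, 3.08 and 3.67 CPM at 6 weeks. Its log2 fold change was -2.82 ± 0.48 (adjusted p = 0.0045), and leaving out single libraries gave values between -3.21 and -1.86. Other members of the macrophage lists were called higher. Of 22 tested genes of resident alveolar macrophages, Marco fell and 2 rose (Ear2 and Chil3), with a median of 0.08. Of 20 tested genes of alternatively activated macrophages, Arg1 fell and 3 rose (Chil3, Mgl2 and Cd209a), with a median of -0.06. The number that rose in the latter list was 1 without any of the libraries 3132, 3133, 3142 and 3143, and in the former 1 without 3133, 3141, 3142 or 3143. The number that fell was 2 in either list without 3132 or 3133.

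Of 41 tested genes for cytokines and chemokines of acute inflammation, 9 fell and 3 rose, with a median log2 fold change of -0.32, against 0.0016 over all genes tested. Those that fell included Ccl2 (-1.72), which draws monocytes, Ccl3 (-1.73), Saa3 (-1.79), an acute-phase protein, and Csf2 (-1.61), the growth factor GM-CSF. Csf2 lay at 5.73, 3.81 and 4.13 CPM at 2 weeks and at 1.90, 1.19 and 1.37 CPM at 6 weeks, with an adjusted p of 0.0023, and kept its call without any single library. Ccl2 (17.2, 12.9 and 33.5 CPM, then 4.76, 7.11 and 7.47 CPM) and Saa3 (60.7, 31.1 and 131 CPM, then 17.3, 26.9 and 20.0 CPM) were separated between the times but lost their calls without library 3134 and without 3143, and Saa3 also without 3141 or 3142. Ccl8, another chemokine for monocytes, moved the other way, from 14.8, 14.4 and 19.5 CPM to 27.5, 68.1 and 49.4 CPM (log2 fold change 1.57 ± 0.29, adjusted p = 0.0058). Without library 3134 only 3 genes of the list fell and 4 rose. The summed level of the list did not fall, with 3044 to 3719 CPM at 2 weeks and 3694 to 4675 CPM at 6 weeks. In controls it ran from 1140 to 1787 CPM and then from 1023 to 1093 CPM. Against controls of the same time, 26 of the 41 genes were above and 1 below at 2 weeks. At 6 weeks 24 were above and 0 below. Over all genes tested, 5.67% and then 7.28% were above.

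Most genes induced by interferons had negative log2 fold changes. Of 45 tested interferon-gamma-inducible genes, 9 fell and 0 rose, with a median log2 fold change of -0.71 (-0.11 at 65 Gy and 0.02 in controls), and 42 had a negative value. Of these 45, 15 were below in all libraries of 6 weeks. The summed level of the list overlapped between the times, with 6454, 7107 and 13150 CPM at 2 weeks and 6197, 8204 and 7554 CPM at 6 weeks. Gbp6, a guanylate-binding protein of cell-autonomous immunity, had 52.9, 63.9 and 165 CPM at 2 weeks and 29.2, 43.2 and 34.4 CPM at 6 weeks (log2 fold change -1.40 ± 0.34, adjusted p = 0.019). Cxcl10, a chemokine for T cells, had 17.1, 21.9 and 67.6 CPM and then 9.53, 14.7 and 14.3 CPM (-1.47 ± 0.45, adjusted p = 0.049). The highest of the 2-week values was that of library 3134 for both genes. Without library 3134, and also without 3143, Gbp6 and Cxcl10 were not called, and Cxcl10 was not called without 3141 or 3142 either. The list then held 1 fall without 3134 and 0 without 3143. Of 39 tested type I interferon-stimulated genes, all had a negative log2 fold change (median -0.73, against -0.68 at 65 Gy and -0.22 in controls), but 2 passed the test, Rsad2 (-1.35 ± 0.25, adjusted p = 0.0061), which encodes the antiviral protein viperin, and Stat2 (-1.05 ± 0.20, adjusted p = 0.0077), a part of the factor that carries the interferon signal. Neither kept its call without library 3134, nor Stat2 without 3143. Of the 39 genes, 17 were below in all libraries of 6 weeks. Their summed level did not overlap, with 2125 to 4033 CPM at 2 weeks and 1632 to 1970 CPM at 6 weeks. Over all genes tested, 10979 had a negative value and 11065 a positive one, and 13.6% were below in all libraries of 6 weeks.

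Genes of mitosis also lay lower. Of 58 tested genes of mitosis and the kinetochore, 10 fell and 0 rose, 57 had a negative log2 fold change, and 47 were below in all libraries of 6 weeks, with a median of -0.82, against -0.81 at 65 Gy and -0.08 in controls. Without a limit on the fold change, 31 of the 58 fell. Mki67, the gene of the proliferation marker Ki-67, had 70.7, 76.7 and 126 CPM at 2 weeks and 34.7, 39.3 and 35.0 CPM at 6 weeks, with a log2 fold change of -1.33 ± 0.22 (adjusted p = 0.0045). Controls stood at 25.3 and 26.6 CPM on average. Cenpf, a kinetochore protein, had 12.4, 14.0 and 21.2 CPM and then 5.20, 7.66 and 6.15 CPM (-1.32 ± 0.21, adjusted p = 0.0033). Ube2c, a ubiquitin-conjugating enzyme of mitotic exit, had 10.2, 9.03 and 14.9 CPM and then 4.33, 4.16 and 5.02 CPM (-1.34 ± 0.26, adjusted p = 0.0085). All 3 kept their calls without any single library, while the count of the list was 4 without library 3134 and 3 without 3143. The 52 tested genes of DNA replication and recombination repair had a median of -0.27, against -0.31 at 65 Gy and 0.09 in controls. A negative value was found for 47 of them. In all libraries of 6 weeks 16 were below and 2 above, against 13.6% and 14.2% of all genes tested. Neither edgeR nor DESeq2 called any of them (0), while 16 lower and 2 higher values had an unadjusted p under 0.05. Called lower were 1 without library 3132 and 2 without 3133 or 3142.

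The promoters of the mitotic and interferon-induced genes that moved together are shown because each group shares short motifs. The windows run from 250 bases before to 50 bases after the start of the gene and come from RefSeq on GRCm38.p6, 5′ to 3′ on the strand of the gene. The capitals mark TTTGAA, the cell cycle homology region known from promoters of mitotic genes, and CCAAT, the box bound by NF-Y, on either strand.
Mki67 (chr7:135716330-135716629, minus strand): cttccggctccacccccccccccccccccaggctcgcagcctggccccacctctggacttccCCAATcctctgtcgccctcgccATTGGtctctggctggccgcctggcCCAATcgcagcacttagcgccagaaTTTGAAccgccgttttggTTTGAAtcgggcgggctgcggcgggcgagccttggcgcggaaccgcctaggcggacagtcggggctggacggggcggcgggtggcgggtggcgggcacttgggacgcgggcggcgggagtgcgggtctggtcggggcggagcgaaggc
Cenpf (chr1:189688037-189688336, minus strand): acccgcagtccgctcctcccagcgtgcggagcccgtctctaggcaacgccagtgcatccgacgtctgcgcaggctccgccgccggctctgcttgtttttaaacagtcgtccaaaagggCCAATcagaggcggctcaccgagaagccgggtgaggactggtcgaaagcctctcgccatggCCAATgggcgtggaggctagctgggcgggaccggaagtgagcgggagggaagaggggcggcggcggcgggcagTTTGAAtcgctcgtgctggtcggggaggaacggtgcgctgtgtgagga
Ube2c (chr2:164769679-164769978, plus strand): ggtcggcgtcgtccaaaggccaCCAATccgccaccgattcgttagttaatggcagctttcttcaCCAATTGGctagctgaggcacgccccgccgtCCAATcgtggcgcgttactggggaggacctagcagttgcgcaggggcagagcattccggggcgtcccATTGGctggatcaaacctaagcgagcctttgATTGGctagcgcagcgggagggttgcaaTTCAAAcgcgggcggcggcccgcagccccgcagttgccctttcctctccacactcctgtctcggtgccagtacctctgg
TTTGAA was present in 33 of the 48 mitotic genes with a promoter in the table (68.8%) and in 16.4% of the 15763 genes tested that have one. CCAAT was present in 66.7% and 41.6% of them. Among replication genes TTTGAA was present in 12.8%. A match is a description of the letters and not a site of binding.

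For the interferon-induced genes the capitals mark the core of the interferon-stimulated response element, which is GAAA, any 2 bases and GAAA again, on either strand.
Rsad2 (chr12:26456403-26456702, minus strand): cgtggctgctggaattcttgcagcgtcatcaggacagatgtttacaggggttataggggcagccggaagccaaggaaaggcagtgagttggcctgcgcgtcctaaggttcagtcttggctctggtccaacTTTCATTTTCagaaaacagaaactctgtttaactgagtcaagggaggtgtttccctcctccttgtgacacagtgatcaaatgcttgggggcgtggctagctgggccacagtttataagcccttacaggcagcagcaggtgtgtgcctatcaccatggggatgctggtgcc
Cxcl10 (chr5:92348840-92349139, minus strand): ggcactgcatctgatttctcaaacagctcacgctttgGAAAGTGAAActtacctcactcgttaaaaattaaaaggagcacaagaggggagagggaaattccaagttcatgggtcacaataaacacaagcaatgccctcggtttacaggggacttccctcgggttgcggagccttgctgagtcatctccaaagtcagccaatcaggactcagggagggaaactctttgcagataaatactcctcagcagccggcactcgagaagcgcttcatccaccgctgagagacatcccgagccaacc
The element was present in 17 of 28 type I interferon-stimulated genes (60.7%), in 13 of 28 interferon-gamma-inducible genes (46.4%) and in 3.84% of all genes tested that have a promoter in the table. TTCNNNGAA, the site of activated STAT dimers, was present in 39.3% of the interferon-gamma-inducible genes and in 8.75% of all. The 126 genes called lower that have a promoter held the response element in 10.3% and TTTGAA in 23.8%, and the 295 called higher held them in 3.05% and 17.6%.

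**Figure D2:**
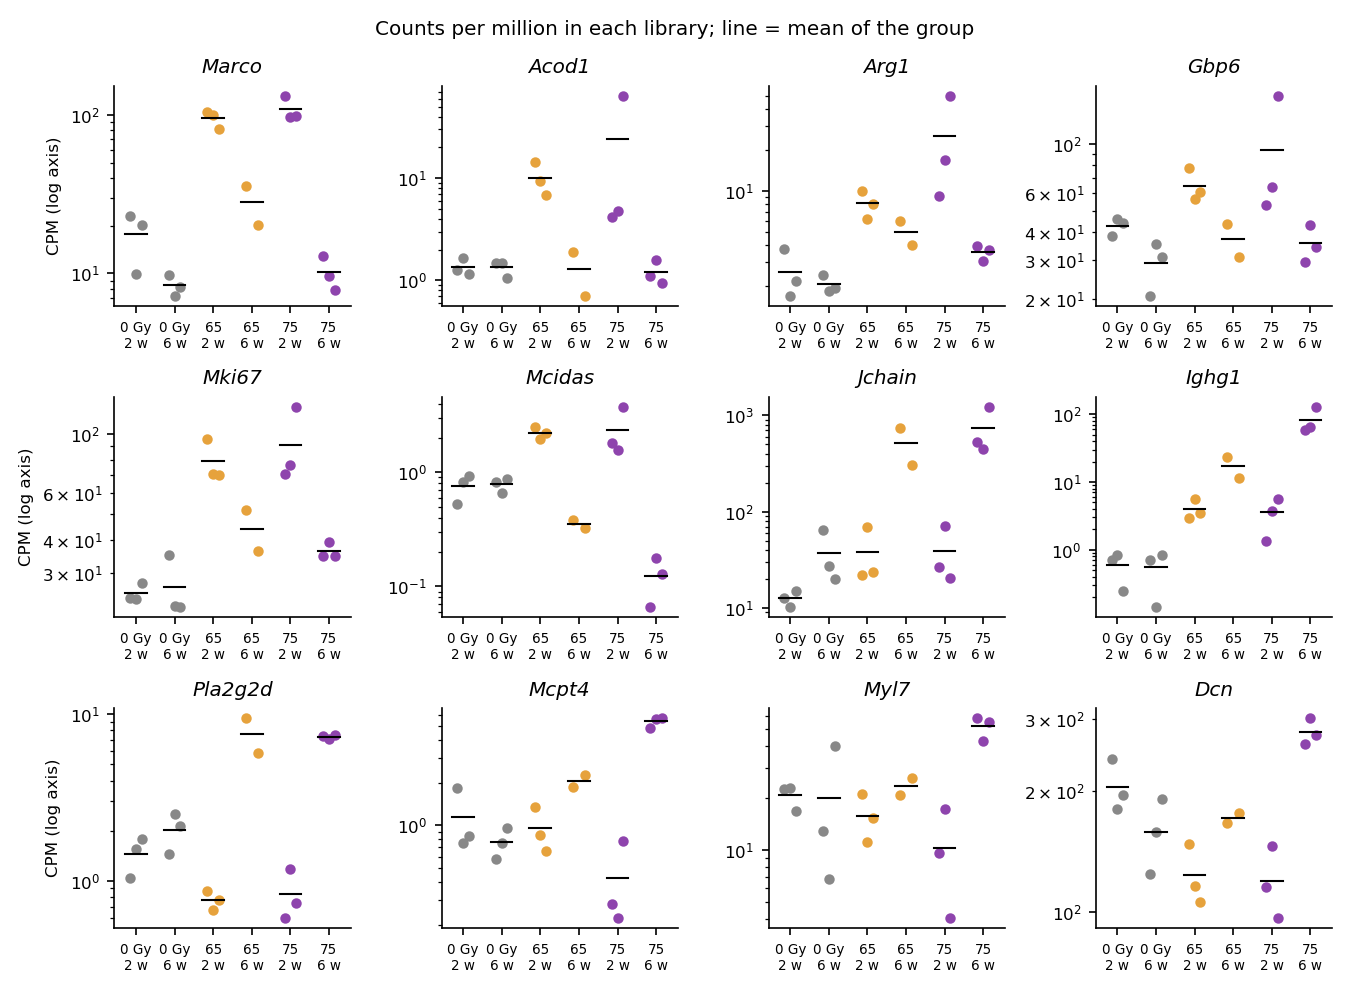
Each panel plots 1 gene in CPM on a log axis for the controls (0 Gy), 65 Gy and 75 Gy at 2 and 6 weeks, with 1 point per library and a line at the mean of the group. Marco, Acod1, Arg1, Gbp6, Mki67 and Mcidas were lower in every library of 6 weeks than in every library of 2 weeks at 75 Gy, and Jchain, Ighg1, Pla2g2d, Mcpt4, Myl7 and Dcn were higher.

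Antibody genes rose. All 11 tested immunoglobulin constant regions were called higher, with a median log2 fold change of 3.08, against 2.87 at 65 Gy and 0.80 in controls. Igkc, the constant region of the kappa light chain, had 81.9, 191 and 75.2 CPM at 2 weeks and 1069, 843 and 2814 CPM at 6 weeks (log2 fold change 3.76 ± 0.54, adjusted p = 0.0018). Ighg1, the constant region of IgG1, had 1.35, 3.78 and 5.63 CPM and then 57.5, 63.5 and 127 CPM (4.53 ± 0.56, adjusted p = 0.00064), while controls averaged 0.598 and 0.565 CPM. Jchain, which joins the units of IgM and IgA, had 26.9, 70.6 and 20.4 CPM and then 532, 446 and 1221 CPM (4.22 ± 0.66, adjusted p = 0.0028). Of the 11 constant regions, 9 were higher in all libraries of 6 weeks than in all of 2 weeks, against 14.2% of all genes tested. The libraries of 6 weeks were above those of 2 weeks for Igkc, Ighg1 and Jchain, and library 3143 was the highest. Without it 6 of the 11 constant regions were called, and without 3133 or 3134 it was 7. Igkc, Ighg1 and Jchain remained called without any single library.

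Of 187 tested variable segments, 108 were higher and 0 lower (51 of the heavy chain, 55 of kappa and 2 of lambda), and the median log2 fold change was 2.92, against 2.06 at 65 Gy and 0.58 in controls. Their summed level was 105.6, 214.7 and 94.7 CPM at 2 weeks and 1541, 1122 and 3687 CPM at 6 weeks, and 26, 48 and 21 segments reached 1 CPM at 2 weeks against 109, 108 and 129 at 6 weeks. The most abundant segment differed between the libraries of 6 weeks. It was Igkv4-91 in library 3141, with 20.4% of the summed level, Igkv1-110 in 3142, with 18.5%, and Igkv1-117 in 3143, with 33.3%. Among heavy chain segments Ighv1-80 took 40.4% in library 3143, where it had 503 CPM, against 3.56 CPM in 3141 and 14.4 CPM in 3142. Some variable segments are close to others in sequence, so that the assignment of reads to single segments can be uncertain. Without library 3143, 59 segments were called, and without 3134 it was 72.

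**Figure D3:**
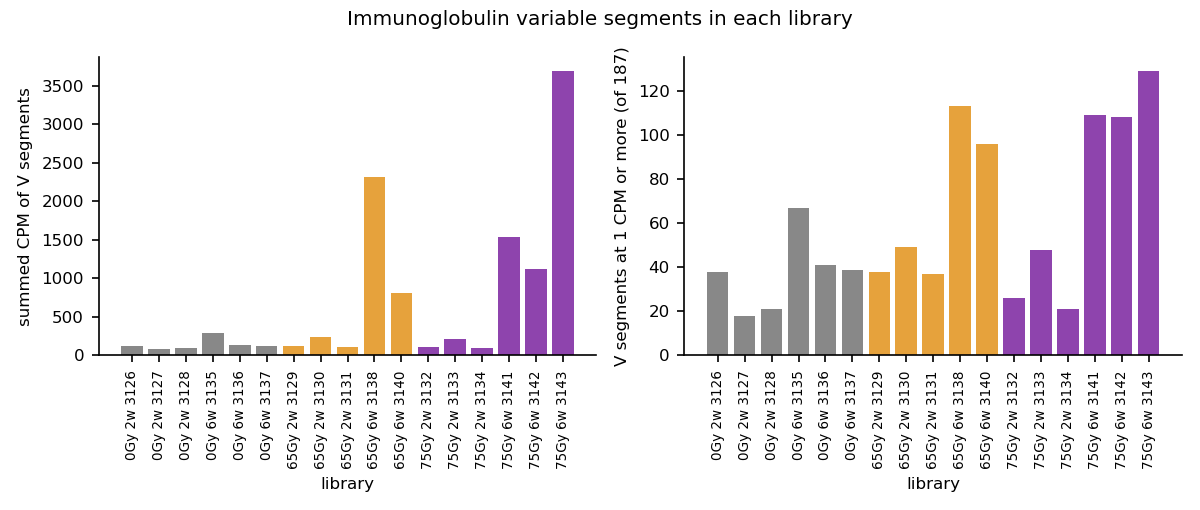
Bars give the summed CPM of the 187 tested variable segments (left) and the number of them at 1 CPM or more (right) in each of the 17 libraries, coloured by dose. At 75 Gy the libraries of 6 weeks reached 1122 to 3687 CPM and 108 to 129 segments, above all libraries of 2 weeks.

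Genes of plasma cells other than immunoglobulins and of mature B cells moved less. Of 25 tested plasma cell genes 4 rose (3 without library 3134 and 2 without 3143), and the list's median was 0.02. Mzb1, a chaperone of antibody assembly, had 4.61, 6.59 and 4.26 CPM at 2 weeks and 10.2, 10.3 and 22.9 CPM at 6 weeks (1.49 ± 0.30, adjusted p = 0.0096). Of 24 tested mature B cell genes 1 rose, Vpreb3 (1.08), whose call was lost without library 3134 and without 3143. The count was 0 without 3134, 4 without 3133 and 2 without 3132 or 3142. The list had a median of 0.74 that was 0.71 in controls over the same interval. Cd79a, a part of the B cell receptor, had 25.8, 27.4 and 17.2 CPM and then 49.6, 41.6 and 38.4 CPM, with a log2 fold change of 0.88 at 75 Gy and 0.86 in controls.

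Single genes of lymphoid tissue and antigen-presenting cells rose, while the medians of their lists lay near or below 0. Over all genes tested, 2.32% were called higher and 0.834% lower. Of 19 tested dendritic cell genes Cd209a rose and Siglech, a lectin of plasmacytoid dendritic cells, fell (-1.45 ± 0.36, adjusted p = 0.022, lost without library 3134, 3142 or 3143), with a median of -0.16. Of 19 tested lymphoid-organising chemokines and related genes Glycam1 alone rose and 0 fell, with a median of -0.12. Pla2g2d, a secreted phospholipase of dendritic cells, had 0.595, 1.18 and 0.739 CPM at 2 weeks and 7.37, 7.11 and 7.49 CPM at 6 weeks (3.11 ± 0.29, adjusted p = 7.3e-05). Glycam1, a ligand of L-selectin made by high endothelial venules, had 0 counts in all 3 libraries of 2 weeks and 0.492, 2.10 and 1.59 CPM at 6 weeks, which is at least 83.0-fold higher when the 2-week group is set to a floor of 3 counts over the group. Cd209a, a lectin of dendritic cells, had 12.4, 11.1 and 8.93 CPM and then 19.7, 33.4 and 27.4 CPM (1.31 ± 0.20, adjusted p = 0.0025). These genes were higher in every library of 6 weeks. Mmp12, the macrophage elastase, had 75.2, 65.5 and 174 CPM and then 279, 239 and 258 CPM (1.30 ± 0.31, adjusted p = 0.017), a call that was lost without library 3143. Ear2, a ribonuclease, had 94.2, 69.3 and 117 CPM and then 209, 248 and 204 CPM (1.24 ± 0.25, adjusted p = 0.0092). Of the 32 tested genes of lipid-laden macrophages and lysosomes, 2 rose and 0 fell, and the list's median was 0.03. The number that rose was 1 without library 3133 or 3142 and 0 without 3143, and 1 fell without 3132 or 3141.

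Several genes of mast cells rose. Of 12 tested mast cell genes 7 rose and 0 fell, with a median of 1.73, against 0.02 in controls and 0.19 at 65 Gy. A negative log2 fold change was found for 3 of them. The summed level of the list overlapped between the times, with 269.9, 313.2 and 244.7 CPM at 2 weeks and 318.3, 293.6 and 310.3 CPM at 6 weeks. In controls it ran from 444.6 to 534.9 CPM at 2 weeks and from 442.1 to 480.3 CPM at 6 weeks. Mcpt4, a chymase of connective tissue mast cells, had 0.280, 0.222 and 0.774 CPM at 2 weeks and 4.84, 5.63 and 5.70 CPM at 6 weeks (3.67 ± 0.45, adjusted p = 0.00058). Cpa3, their carboxypeptidase, had 2.22, 1.38 and 3.76 CPM and then 9.58, 14.3 and 12.8 CPM (2.32 ± 0.38, adjusted p = 0.0036), and Cma1, another chymase, had 0.928, 0.902 and 2.48 CPM and then 4.79, 8.21 and 6.77 CPM (2.20 ± 0.39, adjusted p = 0.005). The 2-week values of Mcpt4 lay below the 1.15 CPM that controls averaged at that time. Without single libraries 4 to 6 genes of the list were called.

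Of 42 tested collagen chains 21 had a positive and 21 a negative log2 fold change. The test called 2 higher and 0 lower, beside 2.32% and 0.834% of all genes tested. The median was 0.00, against -0.017 at 65 Gy and -0.265 in controls. The number that rose was 4 without library 3134 and 1 without any one of the others, and 1 fell without 3132 or 3141. Against controls of the same time, 1 chain was above and 1 below at 2 weeks, and 8 were above and 1 below at 6 weeks. Over all genes tested, 5.67% and then 7.28% were above. Col1a1, the main chain of fibrillar collagen, had 328, 551 and 489 CPM at 2 weeks and 290, 251 and 201 CPM at 6 weeks, and its log2 fold change of -0.88 ± 0.22 (adjusted p = 0.02) did not reach the fold limit. It was -0.68 in controls, which averaged 331 and 206 CPM. Col3a1 had 1426, 1422 and 1200 CPM and then 894, 1094 and 824 CPM (-0.53 ± 0.19, adjusted p = 0.09), against -1.01 in controls. The 26 tested genes of collagen processing and cross-linking, among them the chaperone Serpinh1 (-0.69), had 0 calls by edgeR and by DESeq2 and a median of -0.20, which was -0.21 in controls. Lower values with an unadjusted p under 0.05 were found for 10 of them.

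Matrix glycoproteins and proteoglycans moved in both directions. Of 44 tested, 4 rose (Dcn, Spp1, Fmod and Thbs4) and 3 fell (Lama1, Hapln1 and Eln). The median was 0.12, against -0.05 at 65 Gy and -0.22 in controls. Without library 3142 or 3143 it was 2 that rose and 1 that fell. Against controls of the same time, 4 of the 44 were above and 2 below at 2 weeks, and 12 were above and 1 below at 6 weeks. Dcn, decorin, a proteoglycan that binds collagen fibrils, had 116, 146 and 96.5 CPM at 2 weeks and 261, 302 and 274 CPM at 6 weeks (1.23 ± 0.18, adjusted p = 0.0018). Col28a1, a collagen chain, had 4.66, 3.67 and 6.59 CPM and then 11.8, 19.3 and 17.1 CPM (1.69 ± 0.23, adjusted p = 0.0013). Both were higher in every library of 6 weeks and kept their calls without any single library. Lama1, a laminin chain, fell from 19.0, 15.9 and 16.1 CPM to 4.12, 5.33 and 3.82 CPM (-1.95 ± 0.31, adjusted p = 0.0031), but also fell in controls (-1.59, adjusted p = 0.02). Of 26 tested myofibroblast and smooth muscle genes 2 rose, Actg2 (1.04) and Cnn1 (1.14), and both calls were lost without any of the libraries 3132, 3134, 3142 and 3143. Acta2, smooth muscle actin, had 122, 129 and 105 CPM and then 152, 236 and 248 CPM (0.84 ± 0.26, adjusted p = 0.049).

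Genes of cardiac muscle and adipocytes moved with the interval. Of 15 tested cardiac muscle genes 10 rose and 0 fell, with a median of 2.06, against -0.06 in controls and 0.49 at 65 Gy. Myl7, the atrial myosin light chain, had 9.61, 17.3 and 4.03 CPM at 2 weeks and 58.3, 42.8 and 55.3 CPM at 6 weeks (2.33 ± 0.54, adjusted p = 0.017), and Tnni3, cardiac troponin I, had 8.07, 18.4 and 7.51 CPM and then 48.2, 44.2 and 49.2 CPM (2.06 ± 0.39, adjusted p = 0.007). The summed level of the list ran from 96.1 to 351.9 CPM at 2 weeks, from 659.3 to 907.8 CPM at 6 weeks, and from 212.6 to 836.6 CPM in controls of 6 weeks. Without library 3143 only 3 of its genes were called, and Myl7 was not among them. Without 3134 it was 5 genes. Of 18 tested adipocyte genes 3 rose (Lep, Plin4 and Slc2a4), with a median of 1.43, against -0.03 at 65 Gy and -0.12 in controls. Without library 3134, and without 3143, 0 of them were called by edgeR. Adipoq, adiponectin, had 0.333, 1.48 and 0.334 CPM and then 6.17, 4.85 and 6.63 CPM, with an adjusted p of 0.073, and Plin1, which coats lipid droplets, had an adjusted p of 0.075. Muscle sleeves of pulmonary veins and fat at the hilum can enter a piece of lung, and the part of tissue sampling in these values was not tested.

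**Figure D4:**
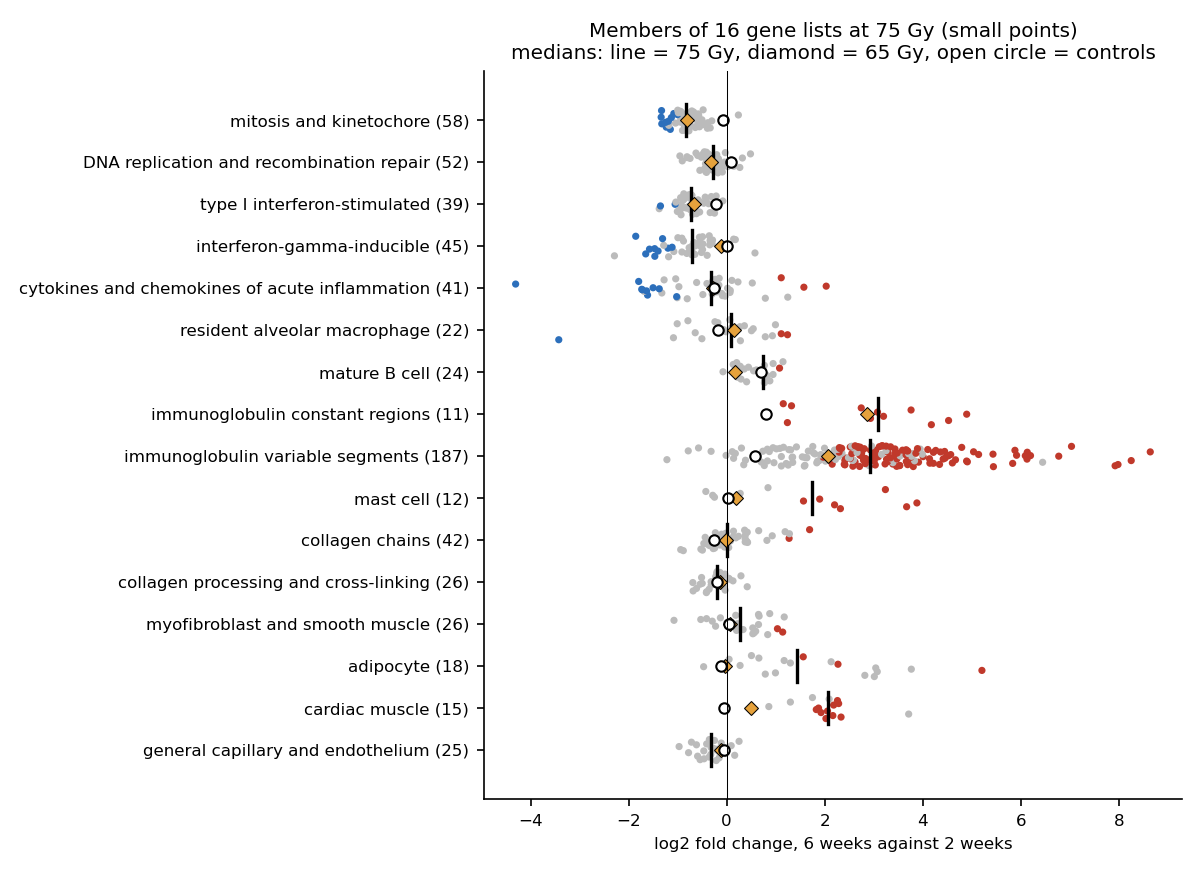
Small points are the members of 16 gene lists by their log2 fold change at 75 Gy, 6 weeks against 2 weeks, red where called higher and blue where called lower, with the number tested in parentheses. Black lines, diamonds and open circles give the list's median at 75 Gy, at 65 Gy and in controls. The immunoglobulin lists lie near 3 at 75 Gy, and the lists of mitosis and interferons lie below 0.

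For the gas-exchange tissue, 0 genes were called by edgeR among alveolar type 1 (20 genes), alveolar type 2 (22 genes) and general capillary genes (25 genes). Their medians were -0.08, -0.06 and -0.32, and 3.16% of all genes tested were called. Of the 25 capillary genes 22 had a negative value, and 2 were called lower without library 3134 and 1 without 3141. Against controls of the same time, 9 of the 25 were below at 2 weeks and 19 at 6 weeks. Over all genes tested, 2.07% and then 3.13% were below. DESeq2 called 1 type 2 gene lower, and an unadjusted p under 0.05 was found for 3 lower values in type 1, 3 lower and 2 higher in type 2 and 10 lower in capillary genes. Apln, the peptide apelin of endothelial tip and capillary cells, fell from 95.8, 89.1 and 75.4 CPM to 38.7, 37.1 and 28.1 CPM (-1.32 ± 0.15, adjusted p = 0.00031). It was the only call among 16 tested genes of aerocyte capillary cells, whose median was -0.10. Gdf15, a stress cytokine and p53 target, fell from 23.5, 23.4 and 21.2 CPM to 8.55, 9.68 and 10.7 CPM (-1.24 ± 0.11, adjusted p = 6.6e-05). Among 30 tested p53 targets it alone fell and 1 rose, with a median of -0.295.

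Some genes of the circadian clock and immediate early genes differed between the times as well. Of 20 tested clock genes 3 rose and 2 fell at 75 Gy, and 7 rose and 2 fell in controls. Without library 3134 only 1 rose at 75 Gy. Arntl, the clock factor BMAL1, had 18.7, 21.5 and 21.6 CPM and then 9.76, 8.95 and 7.65 CPM (-1.23 ± 0.12, adjusted p = 0.00013), and in controls it fell from a mean of 37.8 to 7.18 CPM. Egr1, an immediate early gene, had 80.3, 164 and 97.4 CPM and then 474, 568 and 769 CPM (2.41 ± 0.68, adjusted p = 0.036), and controls averaged 67.8 and 300.5 CPM. Its call was lost without library 3132, 3134, 3142 or 3143, and the change in controls had an adjusted p of 0.14. Of 24 tested heat shock and immediate early genes 3 rose and 0 fell at 75 Gy, with a median of 0.28, while 0 rose and 7 fell in controls, with a median of -0.19. The count at 75 Gy was 1 without library 3132, 2 without 3134 and 0 without 3143. The hour of collection is not given in the sources used here, and its part in the results was not tested.

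The interval was also measured in the other groups. In controls 127 genes (0.576%) were called between 6 and 2 weeks, 0.240% of all genes higher and 0.336% lower. At 65 Gy it was 75 genes (0.340%), 0.254% higher and 0.0862% lower. Of the 512 genes higher at 75 Gy, 91.4% had the same sign at 65 Gy and 71.3% in controls, against 73.3% and 57.6% of all genes with a positive value at 75 Gy. Of the 184 genes lower, 94.6% and 67.4% had the same sign, against 73.2% and 55.1%. The change with time at 75 Gy differed from that in controls for 56 genes (0.254%), of which 47 (0.213%) had a higher and 9 (0.0408%) a lower value at 75 Gy. That count was 29 without library 3142 or 3143 and 104 without 3132. Between the changes at 75 Gy and at 65 Gy, edgeR called 0 genes, with 821 genes at an unadjusted p under 0.05, and DESeq2 called 2. Against controls of the same time, 7.74% of all genes were called at 2 weeks (5.67% above and 2.07% below) and 10.4% at 6 weeks (7.28% above and 3.13% below). Of the 512 genes that rose, 32 were above and 49 below controls at 2 weeks, and 243 were above and 6 below at 6 weeks. Of the 184 genes that fell, 72 were above and 3 below controls at 2 weeks, and 24 were above and 43 below at 6 weeks. These contrasts share their 75 Gy libraries with the comparison that chose the genes.

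Longer transcripts lay slightly lower at 6 weeks at both doses and slightly higher in controls. The 16166 tested protein-coding genes with a transcript length (97.3%) were divided into 5 groups of nearly equal size by their longest transcript. The median log2 fold change at 75 Gy was 0.08 in the group of the shortest and -0.15 in the longest, at 65 Gy it was 0.11 and -0.11, and in controls -0.07 and 0.07. At 75 Gy the mean log2 level of the longest group minus that of the shortest was 1.30, 1.57 and 1.47 at 2 weeks. It was 1.35, 1.23 and 1.15 at 6 weeks, so that the times overlapped. The genes called lower had a median length of 3297 bases, close to the 3288 bases of all these genes. The genes called higher had a median of 2460 bases. Zbed6, a transcription factor gene of 5007 bases in group 4 of the 5, fell from 52.95, 65.4 and 58.2 CPM to 19.4, 10.4 and 7.71 CPM (-2.23 ± 0.40, adjusted p = 0.0056). The median of that group was -0.05 at 75 Gy. Length biases of this kind move with RNA quality, for which the sources used here give no value, and their part in the results was not tested.

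**Figure D5:**
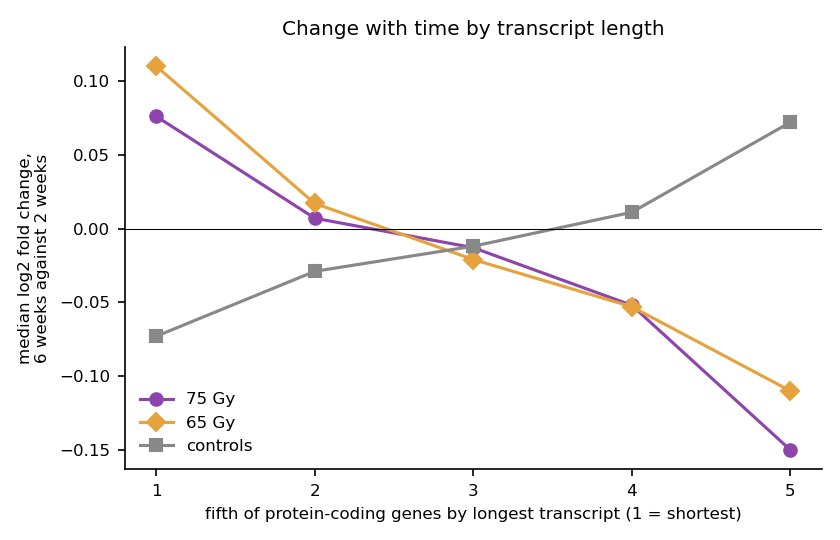
The median log2 fold change, 6 weeks against 2 weeks, is plotted for 5 groups of protein-coding genes by longest transcript, from the shortest (1) to the longest (5), at 75 Gy, at 65 Gy and in controls. The medians fall with length at both doses (from 0.08 to -0.15 at 75 Gy) and rise in controls (from -0.07 to 0.07).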

How the data were processed

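RNA from 17 lung libraries was sequenced by the authors from stranded TruSeq mRNA libraries. Trimmomatic removed adapters, HISAT2 placed the reads on GRCm38.p6 and StringTie followed, and the deposited values are raw whole-number counts per gene for 45777 genes. How the counts were taken from StringTie's output is not given in the sources used here. One fit in R 4.3.3 with edgeR 4.0.16 took all 17 libraries (filterByExpr, count limit 10 and total limit 15, TMM factors, 1 coefficient per group, quasi-likelihood F test, Benjamini-Hochberg adjustment over 22052 genes). CPM values use the TMM-scaled library sizes, and standard errors are the log2 fold change divided by the square root of F. The libraries held 46764569 to 66797879 counts. Differences between time effects were contrasts of the same fit. The alternatives were DESeq2 1.42.0, edgeR's exact test, other filters, factors and sets of libraries, no fold limit, an unadjusted p and each library left out in turn.

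The members and gene lists were chosen with earlier results of these data known. Named genes are the 12 largest rises and falls (called, mean log2 CPM of at least 1, no overlap, no immunoglobulin segments), the 4 members of each list with the smallest p, the 6 largest differences between time effects in each direction (same limits), and the genes that the study measured by RT-qPCR. Sftpc, Acta2, Col3a1, Eln, Fmod, Hapln1, Spp1, Thbs4, Lep, Ighv1-80, the genes of multiciliated cells and plasma proteins, Cd207, Apod and the other most abundant segments were chosen after their values were seen. Motifs were sought in RefSeq promoters of GRCm38.p6, and transcript lengths are those of GENCODE.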

Additional observations from a re-analysis of the deposited data

Results flagged for a closer look

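The following genes were singled out because their change with time at 75 Gy differed from that in controls by edgeR's test of the difference (adjusted p at most 0.05 and at least 1 on the log2 scale). Each value is the log2 change at 75 Gy minus that in controls. A positive value means a larger rise or a smaller fall at 75 Gy, or a rise there with a fall in controls. In the last case part of the value is the fall in controls. Among antibody genes it was 4.58 for Ighg1, 2.32 for Iglc1, 3.32 for Iglv1, 3.36 for Ighv1-78, 3.34 for Ighv1-81 and 3.05 for Igkv6-23. The mast cell genes Mcpt4 (4.25) and Cpa3 (3.07) were also among them. The genes of plasma proteins were Fgg (4.25), Kng2 (2.5) and Serpind1 (1.58). Genes of antigen-presenting cells were Pla2g2d (2.63), Cd207 (1.99), Cd209a (1.86) and Mgl2 (1.64). Matrix and stromal genes were Cpxm2 (3.07), Col28a1 (2.33), Apod (2.13), Dcn (1.6) and Mmp19 (1.39), and Areg, an epidermal growth factor receptor ligand, had 2.97. Lower values were found for Mcidas (-4.29), Marco (-2.35), Ccdc184 (-1.61), Kif14 (-1.43), a mitotic kinesin, and Apln (-1.26). Arntl had 1.17, since it fell in both and further in controls. No group had 4 libraries, so that single libraries could not be tested as outliers.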

How the results depend on the processing

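No paired analysis was possible because the library numbers are unique and shared by no groups. No named gene changed direction. With an adjusted p alone, 2387 genes were called at 75 Gy (1115 higher, 1272 lower), 31 mitotic genes fell, 5 adipocyte genes rose, and 75.61% of the higher genes had the same sign in controls. The log2 change with time was then lower at 75 Gy than in controls for 14 genes. With an unadjusted p there were 1252 (893 and 359), 14 inflammatory genes fell, 9 adipocyte genes rose, same-sign shares at 65 Gy were 85.89% and 86.63%, and the time effect differed from controls for 978 genes (656 and 322) and from 65 Gy for 416 (284 and 132). With only the 6 libraries of 75 Gy there were 171 (135 and 36), with 3 mitotic, 0 interferon-gamma and 1 inflammatory gene lower, and 1 inflammatory, 5 constant region, 27 variable segment, 3 mast cell and 1 cardiac gene higher. A filter of 10 counts in every library left 4 mast cell genes and 64 variable segments. DESeq2 called 306 differences from controls (204 and 102) and 2 from 65 Gy (1 and 1), and a fit of only those 4 groups called 1 (1 higher). Adipocyte genes higher were 8 in the exact test and 7 with 12 libraries.

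With 1 library left out, calls at 75 Gy ran from 286 to 777 (higher 218 to 569, lower 68 to 268), differences from controls from 29 to 104 (25 to 72 and 4 to 35), and those from 65 Gy from 0 to 1 (higher 0, lower 0 to 1). Lower genes ran from 3 to 21 for mitosis, 0 to 15 for interferon-gamma and 3 to 13 for inflammation. Higher genes ran from 1 to 4 for inflammation, 0 to 1 for interferon-gamma, 6 to 9 for constant regions, 59 to 96 for variable segments, 4 to 6 for mast cells, 3 to 14 for cardiac muscle and 0 to 4 for adipocytes. Same-sign shares at 65 Gy ran from 90.69% to 94.68% (higher) and 88.73% to 98.97% (lower), and in controls from 69.47% to 73.99% and 64.55% to 82.35%.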

Other observations

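Single genes that act early in the formation of multiciliated cells fell, while most motile cilia genes had positive values. Of 30 tested motile cilia genes 2 rose (Dynlrb2 and Tmem212) and Mcidas fell, 26 had a positive log2 fold change, and the median was 0.57, against 0.29 in controls and 0.46 at 65 Gy. The number that rose ran from 1 without library 3143 to 8 without 3141. Mcidas, which sets progenitors on the multiciliated path, had 1.79, 1.55 and 3.73 CPM at 2 weeks and 0.0656, 0.177 and 0.128 CPM at 6 weeks (log2 fold change -4.24 ± 0.41, adjusted p = 7.3e-05 by edgeR's quasi-likelihood test), and controls averaged 0.759 and 0.786 CPM. Ccno, a cyclin-like protein of centriole amplification, fell from 3.10, 3.03 and 5.91 CPM to 0.886, 1.34 and 1.06 CPM (-1.87 ± 0.26). Cdc20b (-2.47), Foxn4 (-2.24) and Gmnc (-1.25), which act in the same programme, fell as well, but Foxn4 and Gmnc lost their calls without library 3142. Deup1 (-0.50, adjusted p = 0.2), Myb (0.27, adjusted p = 0.31) and Foxj1 (0.27, adjusted p = 0.38) were not called. Dynlrb2, a dynein light chain, rose from 24.8, 19.2 and 15.8 CPM to 30.6, 54.2 and 52.9 CPM (1.21 ± 0.22, adjusted p = 0.0058), and Tmem212 rose too (1.23 ± 0.20, adjusted p = 0.0033), a call lost without library 3143. These genes were chosen after their values were seen, apart from Mcidas, Ccno, Dynlrb2 and Tmem212.

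Fga and Fgg, fibrinogen chains that are otherwise made by the liver, rose. Of 6 tested hepatocyte genes 1 rose (Fga), with a median of 0.56. Fga, a fibrinogen chain, had 0.280, 1.03 and 1.69 CPM at 2 weeks and 9.05, 7.38 and 8.14 CPM at 6 weeks (3.03 ± 0.61, adjusted p = 0.0091), and Fgg had 2.98, 4.17 and 3.83 CPM and then 20.8, 18.1 and 20.2 CPM (2.43 ± 0.46, adjusted p = 0.0072). Alb, the main product of hepatocytes, lay at 0.721 to 1.33 CPM and then at 1.57 to 1.90 CPM (0.84 ± 0.34, adjusted p = 0.12). Ahsg, another liver gene, had an adjusted p of 0.21.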
